A study of Mus musculus with 10 samples.

Results

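Calb1, Calb2, S100g and Pvalb encode cytosolic calcium-binding proteins, and their transcripts were followed here in thymic cells with and without the transcription factor Fezf2. The members were the probe sets of the array whose only gene symbol was one of these 4 names, and each gene was represented by its probe set with the highest mean signal over all arrays. Probe sets were thus selected on mean signal, and the genes were proposed with earlier results of these arrays in view. There were 7 such probe sets, 4 of them for Calb1 and 1 for each of the other genes, and the 4 representing probe sets were among the 14087 genes tested. Signals were measured on 5 arrays of Fezf2 knockout (KO) cells and 5 arrays of wild-type (WT) cells, named here by their title numbers, KO 6 to KO 10 and WT 1 to WT 5. All cells were medullary thymic epithelial cells (mTECs) from thymuses of C57BL/6 mice aged 3 weeks, sorted without CD45, with EpCAM and with high CD80. The labels give no other allele or treatment for either group, do not say which part of Fezf2 was deleted or in which cells, and do not say that each array came from its own mouse. P-values thus reflect array-to-array spread, which may be partly technical.

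Medullary thymic epithelial cells express genes that are otherwise restricted to single organs, and developing T cells that react to the products are removed or diverted. Fezf2 is a zinc finger transcription factor that controls part of this expression, and Aire is the other known regulator. The members of the present set are each known from a few organs, and their tissue restriction was not tested here. They share the EF-hand, a helix-loop-helix fold whose loop holds a calcium ion. Calbindin-D28k, the product of Calb1, is abundant in cerebellar Purkinje cells and in the distal nephron, and calretinin, the product of Calb2, in subsets of neurons and in mesothelium. Calbindin-D9k, the product of S100g, carries calcium through the absorptive cells of the gut and lies in the S100 family. Parvalbumin, the product of Pvalb, speeds relaxation of fast muscle and marks a class of inhibitory neurons. In gut and kidney the calbindins are classical targets of vitamin D.

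The labels were checked first on Fezf2 itself. Its signal lay between 12.1 and 18.3 on the KO arrays and between 5054 and 5895 on the WT arrays. Log2 signals of array pairs correlated at 0.987 to 0.997 within the KO group, at 0.99 to 0.997 within the WT group and at 0.975 to 0.988 across genotypes. KO 6 and WT 1 stood apart in technical probes, with mean poly-A spike-in signals of 675 and 478 where the remaining arrays had 103 to 376, and mean 18S rRNA signals of 3762 and 3445, where the remaining arrays had 765 to 1774. Of the mTEC markers, Aire averaged 6504 ± 1199 in KO cells and 8791 ± 1156 in WT cells (SD, n = 5 each). It was thus present in both groups and was called lower in KO cells (log2 difference -0.45, limma adjusted p = 0.0282). The call of Aire was lost without WT 3, WT 4 or WT 5 (adjusted p = 0.0613, 0.0639 and 0.0681, limma). It held without KO 6 and WT 1 (-0.39, limma adjusted p = 2.00e-04).

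All 4 calcium buffer genes were lower in KO cells, and the size of the fall differed widely among them. Calb1 averaged 117 ± 14.1 in KO cells and 529 ± 26.6 in WT cells, and Calb2 averaged 213 ± 42.8 in KO cells and 468 ± 102 in WT cells (SD, n = 5 each). S100g averaged 948 ± 42.9 in KO cells and 1292 ± 267 in WT cells, and Pvalb 244 ± 19.3 in KO cells and 304 ± 45.8 in WT cells. Each of the 4 passed the threshold of an adjusted p of 0.05 (limma on log2(signal + 16), Benjamini-Hochberg over all genes), and lower calls of this kind were made for 16.2% of all genes tested (29.2% in either direction). The falls of Calb1 and Calb2 were known from earlier work on the same arrays when the set was chosen, so their calls are no independent evidence. Without KO 6 and WT 1 all 4 remained past the threshold, beside 17.6% of all genes called lower. The cells were measured in bulk, where fewer cells expressing a gene and less RNA per cell cannot be told apart.

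Calb1 gave the largest difference of the set. The deposited signals of its main probe set were 108.1, 129.8, 104.5, 135.2 and 108.6 on KO 6 to KO 10, against 535.4, 565.4, 497.1, 538.7 and 510.3 on WT 1 to WT 5. Every KO array lay far below every WT array, and the spread within each group was small, with coefficients of variation of 12% in KO cells and 5.0% in WT cells. Complete separation of this kind, with all KO values below all WT values, was seen for 12% of the genes tested, and the opposite separation for 10.1%. The fitted log2 difference was -2.04 (SE 0.08, 95% interval -2.21 to -1.87, limma adjusted p = 1.48e-08), a 4.11-fold lower value on the log2(signal + 16) scale. Calb1 took rank 12 of 14087 genes ordered by their fall. Signal remained in KO cells, where Calb1 stood above the 40th percentile of every array, itself a signal of 21.5 to 22.1.

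The other 3 probe sets of Calb1 stayed below the 40th percentile on every array and add little. The brightest of them averaged 7.72 ± 0.504 in KO cells and 12.1 ± 2.42 in WT cells, and the dimmest averaged 8.0 ± 0.7 in KO cells and 10.0 ± 0.704 in WT cells (SD, n = 5 each). In both of these the KO values also lay entirely below the WT values. Each had p = 0.00794 by exact permutation (two-sided), the smallest value that 5 against 5 arrays allow, and 0.0139 after adjustment over the 7 probe sets of the members. The remaining probe set averaged 8.73 ± 0.61 in KO cells and 9.69 ± 1.23 in WT cells, with overlapping groups and p = 0.183 by the exact permutation test.

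Calb2 showed a fall of intermediate size with more spread. Its signals were 149.1, 245.3, 246.7, 235.3 and 189.2 on KO 6 to KO 10, against 340.4, 475.8, 402.0, 517.5 and 602.8 on WT 1 to WT 5. The groups did not overlap, and the arrays that stood apart in technical probes, KO 6 and WT 1, were the lowest of their own groups. The log2 difference was -1.07 (SE 0.16, 95% interval -1.43 to -0.72, limma adjusted p = 3.78e-04), a 2.11-fold lower value, and it took rank 119 among all genes ordered by their fall. It was as large without KO 6 and WT 1, at -1.06 (adjusted p = 7.88e-05).

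**Figure D1:**
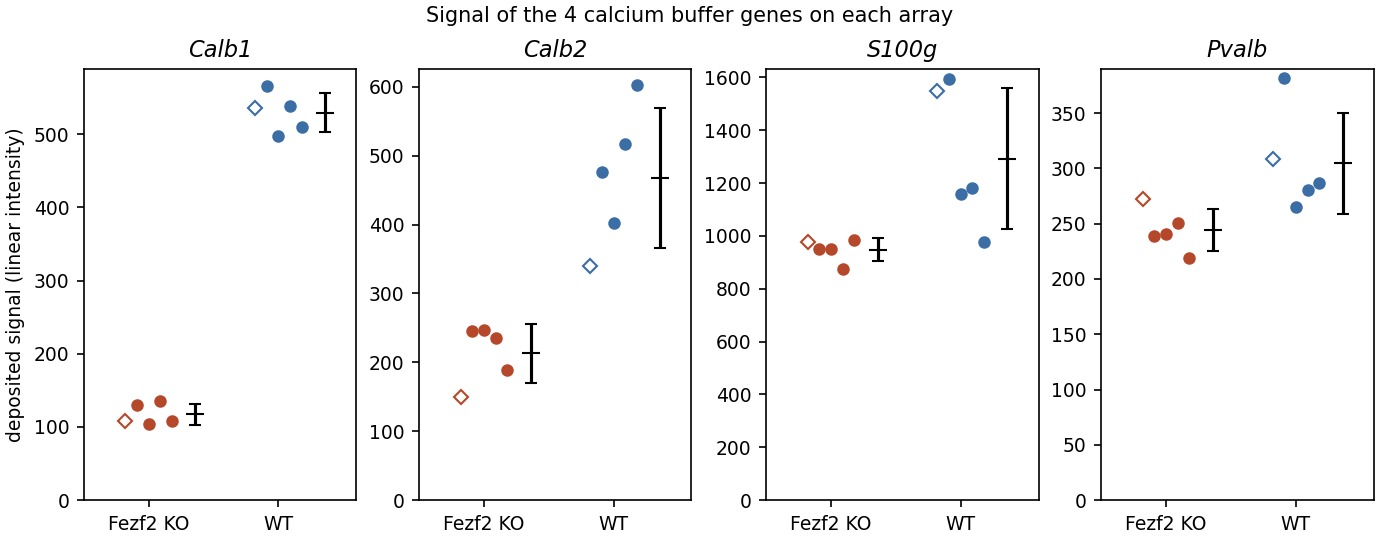
Deposited signal (linear intensity, axis from 0) of Calb1, Calb2, S100g and Pvalb on each of 5 Fezf2 KO arrays (left, red) and 5 WT arrays (right, blue), with the mean and SD of each group as a bar beside the points; open diamonds are KO 6 and WT 1. The groups are wide apart for Calb1, separate for Calb2, and meet at 978.8 and 983.8 (KO) against 978.0 (WT) for S100g and at 272.3 (KO) against 265.2 (WT) for Pvalb.

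S100g, the gene of the intestinal calcium carrier calbindin-D9k, fell less. Its signals were 978.8, 952.3, 949.8, 876.5 and 983.8 on KO 6 to KO 10, against 1547.2, 1594.8, 1158.6, 1180.2 and 978.0 on WT 1 to WT 5. The KO arrays lay close together, with a coefficient of variation of 4.5%, while the WT arrays spread over 20.7%, with WT 1 and WT 2 high and WT 5 inside the KO range. The log2 difference was -0.42 (SE 0.12, 95% interval -0.67 to -0.16, limma adjusted p = 0.0192), a 1.33-fold lower value. The call held whichever of the 10 arrays was omitted, with adjusted p from 0.00381 to 0.0466. S100g lies on chromosome X, and the labels do not give the sex of the mice. With log2 Xist signal as a covariate the difference was -0.45 (adjusted p = 0.0123), and the part of sex in it was not tested.

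Pvalb, the parvalbumin gene, gave the smallest difference. Its signals were 272.3, 238.9, 240.3, 250.4 and 219.2 on KO 6 to KO 10, against 308.5, 381.5, 265.2, 280.2 and 286.9 on WT 1 to WT 5. KO 6 lay above WT 3, and WT 2 was well above the other WT arrays. The log2 difference was -0.29 (SE 0.09, 95% interval -0.50 to -0.09, limma adjusted p = 0.0349), a 1.22-fold lower value. Omitting 1 array removed this call for 6 of the 10 arrays, namely without KO 7, KO 8, KO 9, KO 10, WT 1 or WT 2, with adjusted p up to 0.0776. The difference was -0.21 without WT 2, against -0.34 without WT 3.

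**Figure D2:**
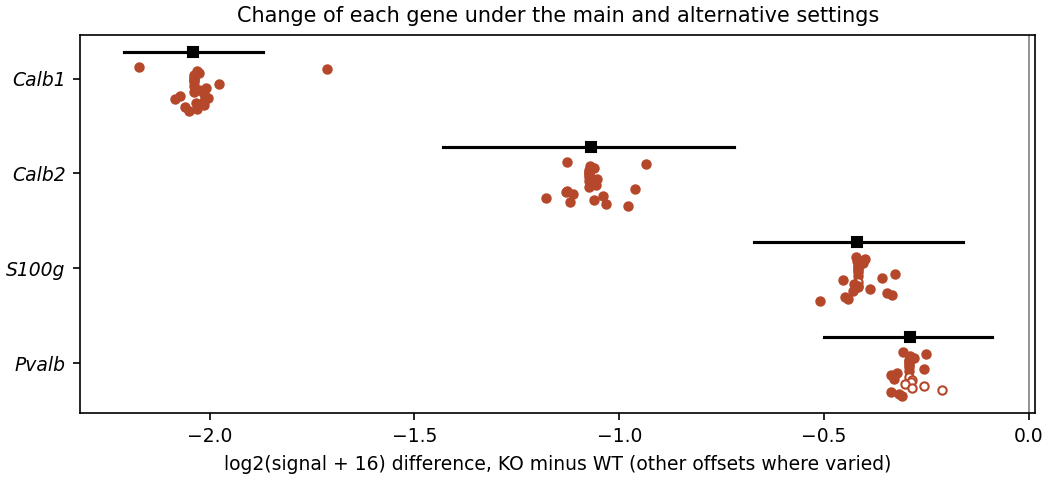
Log2 difference, KO minus WT, of each gene; the black square and line give the value and 95% interval of the fit on all arrays, and each red circle 1 alternative setting or 1 array left out, filled where the gene passed the threshold. Calb1 stayed between -2.17 and -1.71 and Calb2 between -1.18 and -0.93, whereas the open circles mark the settings in which Pvalb lost its call and the adjusted p threshold of 0.01, which S100g and Pvalb missed.

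The falls of the members were compared with each other as differences between 2 genes within each array, on the log2(signal + 16) scale. Calb1 fell further than Calb2, by -0.96 on the log2 scale, further than S100g by -1.62 and further than Pvalb by -1.75. Each of these differences had p = 0.00794 by the exact two-sided permutation test, and 0.0119 adjusted over the 6 pairs. The unadjusted value is the smallest that 5 against 5 arrays allow. Calb2 fell further than Pvalb by -0.78 (exact permutation p = 0.00794, adjusted 0.0119). Between Calb2 and S100g the difference of -0.66 did not pass (exact permutation p = 0.0556, adjusted 0.0667), and between S100g and Pvalb it was -0.12 (exact permutation p = 0.27). The order of the falls was thus Calb1, Calb2, S100g and Pvalb, in which Calb2 was not separated from S100g and S100g was not separated from Pvalb. The falls of Calb1 and Calb2 were known when the set was chosen, so this order is no independent evidence.

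Genes with a profile like that of each member were sought by the mean absolute difference of log2 signals over the 10 arrays, each profile centred on its own mean. KO and WT arrays both entered this measure. A fall of similar size in KO cells thus follows from the choice, and the calls of these genes are no separate evidence. Nearest to Calb1, at 0.123 to 0.189 log2 units, were Smtnl1, Cracd, Saa3, Nol4, Pck1 and Vnn3. They come from unlike settings: Smtnl1 encodes a smoothelin-like protein of muscle, Saa3 an acute-phase apolipoprotein, and Pck1 the cytosolic phosphoenolpyruvate carboxykinase of gluconeogenesis. Smtnl1 averaged 141 ± 30.3 in KO cells and 656 ± 47.0 in WT cells, and Pck1 70.5 ± 8.22 in KO cells and 295 ± 46.6 in WT cells (SD, n = 5 each). Nearest to Calb2, at 0.096 to 0.132, were Fn1, the gene of the matrix protein fibronectin, Ugt8a, an enzyme of myelin galactolipid synthesis, Rdm1, Col5a3, Ak4 and the mitochondrial creatine kinase gene Ckmt1. Fn1 averaged 575 ± 73.1 in KO cells and 1153 ± 238 in WT cells. Nearest to S100g, at 0.056 to 0.089, were Ajap1, Cfap299, Abcc2, Aif1, Fam227b and Pkig, of which Ajap1, Abcc2 and Fam227b passed the threshold. Nearest to Pvalb, at 0.052 to 0.064, were Adgrb1, Washc3, Zfp553, Nudt22, Chst13 and Dbi, of which Adgrb1, Zfp553, Chst13 and Dbi passed, with log2 differences of only -0.29 to -0.22. Washc3, which did not pass, had a difference of -0.20, and of 0.02 without probe sets of shared sequence.

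The nearest tested genes on the chromosome were also examined, taking 2 on each side of each member in the gene order of RefSeq assembly GRCm38.p6. Of these 16 neighbours 6 were lower and 1 was higher in KO cells, where 16.2% of all genes tested were lower and 13% higher. The log2 differences of the neighbours ran from -0.63 to 0.39, all smaller in size than the falls of Calb1 and Calb2. Ctps2, Ap1s2 and Decr1, at -0.63, -0.55 and -0.55, fell further than S100g at -0.42 and Pvalb at -0.29. Beside Calb1 on chromosome 4, Decr1, a mitochondrial enzyme of fatty acid oxidation, averaged 358 ± 21.0 in KO cells and 535 ± 75.6 in WT cells (log2 difference -0.55, limma adjusted p = 6.56e-04), and Nbn, a subunit of a DNA break repair complex, and Pip4p2 had differences of -0.28 and -0.27. The call of Pip4p2 was lost without KO 6 and WT 1 (adjusted p = 0.074). Around Calb2 on chromosome 8 none of the 4 passed. Around S100g on chromosome X, Ctps2, a CTP synthase, and Ap1s2, a clathrin adaptor subunit, fell as well. Ctps2 averaged 357 ± 20.1 in KO cells and 561 ± 27.7 in WT cells, and Ap1s2 283 ± 11 in KO cells and 421 ± 22.8 in WT cells (log2 differences -0.63 and -0.55, limma adjusted p = 1.40e-05 and 3.31e-05). Cltrn, the gene of collectrin, had a difference of -0.30 and 7 of the 10 single-array omissions removed its call. Beside Pvalb on chromosome 15 only Csf2rb2, a receptor subunit gene, passed, and it was higher (0.39, limma adjusted p = 0.00389).

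Other calcium genes changed in both directions. The 5 lists held 113 genes, of which 85 were tested, and 15 of these were lower and 14 higher in KO cells, with a median log2 difference of -0.03, the same as that of all genes tested. Over all genes 16.2% were lower and 13% higher. The lowest of the 85 was Calml4, at -0.87, a difference smaller than those of Calb1 and Calb2 and larger than those of S100g and Pvalb.

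Among 30 tested EF-hand buffers and sensors, 6 were lower, 2 were higher and 22 did not pass, with a median log2 difference of -0.06. Lower calls made up 20% of this list, near the 16.2% of all genes tested, of which 13% were higher. Calml4, a calmodulin-like protein of the intestinal brush border, had signals of 803.6, 829.8, 783.1, 694.2 and 767.1 on KO 6 to KO 10, against 1475.2, 1413.1, 1659.8, 1909.0 and 885.0 on WT 1 to WT 5. All KO arrays lay below WT 5, which was itself far below the other WT arrays (limma adjusted p = 0.00156). Tesc, the sensor tescalcin, averaged 347 ± 50.2 in KO cells and 505 ± 48.9 in WT cells. Kcnip2, a potassium channel partner, and Rcvrn, the photoreceptor protein recoverin, had log2 differences of -0.35 and -0.39. Efhd1, a mitochondrial EF-hand protein, was higher, at 278 ± 42.8 in KO cells and 187 ± 32.2 in WT cells (log2 difference 0.54, limma adjusted p = 0.0071). Scgn, the hexa-EF-hand protein secretagogin, a near relative of the calbindins, averaged 89.2 ± 16.6 in KO cells and 106 ± 13.9 in WT cells and did not pass (log2 difference -0.22, limma adjusted p = 0.191).

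Of 12 tested relatives of S100g in the S100 family 2 were lower, 3 were higher and 7 did not pass, with a median of 0.19. Lower calls made up 16.7% of this list, near the 16.2% of all genes tested, of which 13% were higher. S100a4, S100a10 and S100a8 rose, with log2 differences of 0.51, 0.56 and 0.57, while S100a13 fell by 0.31 and S100b by 0.19 on the log2 scale. Without KO 6 and WT 1 the higher calls numbered 6, and S100b was no longer called (adjusted p = 0.0731).

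Among 13 tested calcium-binding proteins of the secretory pathway, none was lower, 7 were higher and 6 did not pass, with a median of 0.21. Beside this, 16.2% of all genes tested were lower and 13% higher. The counts of the secretory pathway list were the same without KO 6 and WT 1. There was 1 lower call with array weights, with KO 6 and WT 1 as a block and without KO 9. The higher calls numbered 5 with the mean of probe sets and 5 to 7 without 1 array. Rcn1, the endoplasmic reticulum EF-hand protein reticulocalbin, had signals of 674.8, 843.2, 907.9, 890.7 and 907.8 on KO 6 to KO 10, against 386.4, 412.2, 485.7, 397.2 and 464.8 on WT 1 to WT 5. All KO arrays lay above all WT arrays, with KO 6 the lowest of the KO group (log2 difference 0.95, limma adjusted p = 1.78e-05). Nucb2 and Nucb1, the Golgi nucleobindins, averaged 476 ± 64.1 and 1658 ± 78.4 in KO cells, against 326 ± 18.6 and 1271 ± 140 in WT cells. Cgref1 and Sdf4 had differences of 0.37 and 0.21, and the call of Sdf4 was lost with the mean of its probe sets and without probe sets of shared sequence (0.06, adjusted p = 0.555). The major chaperones calreticulin, Calr, and BiP, Hspa5, did not pass, both with a log2 difference of -0.14.

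Of 22 tested channels, pumps and exchangers 4 were lower and 2 were higher, with a median of -0.04. Lower calls made up 18.2% of this list, near the 16.2% of all genes tested, of which 13% were higher. Atp2c1, a calcium and manganese pump of the Golgi, averaged 418 ± 18.8 in KO cells and 600 ± 133 in WT cells (limma adjusted p = 0.0107). Atp2a2, the pump of the endoplasmic reticulum, averaged 2816 ± 109 in KO cells and 3340 ± 293 in WT cells (limma adjusted p = 0.0135). Itpr3, an inositol trisphosphate receptor, and Ryr3, a ryanodine receptor, had differences of -0.37 and -0.34, and 4 and 6 of the 10 single-array omissions removed their calls. Slc8b1, the mitochondrial sodium-calcium exchanger, had a difference of 0.29, whose call was removed by 3 omissions and without KO 6 and WT 1 (adjusted p = 0.0753). Lower calls in the list numbered 2 without WT 4 or without WT 5, and without KO 8 or without WT 2 there was no higher call. Trpv6, the epithelial calcium channel through which calcium enters absorptive cells of the gut ahead of calbindin-D9k, was below the 40th percentile on every array.

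**Figure D3:**
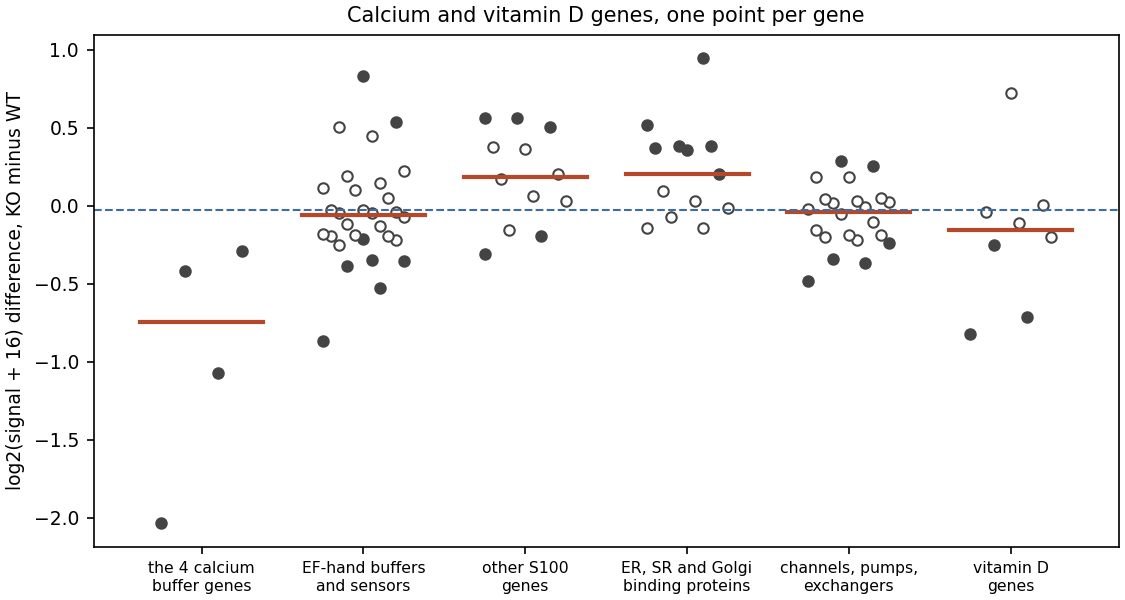
Log2 difference, KO minus WT, of each tested gene in the set of 4 calcium buffer genes and in 5 lists of calcium and vitamin D genes; filled points passed the threshold, red lines are list medians, and the dashed line is the median of all genes, -0.03. The members run from -2.04 to -0.29 and single list genes from -0.87 to 0.95, with list medians between -0.16 and 0.21. Calml4, Cyp24a1, Vdr, Tesc and Atp2c1 of the lists fell further than S100g and Pvalb.

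Among 8 tested vitamin D genes, 3 were lower, none was higher and 5 did not pass, with a median of -0.16. Beside this, 16.2% of all genes tested were lower and 13% higher. The counts of the vitamin D list were the same without KO 6 and WT 1. Without 1 array the lower calls numbered 2 or 3, and there was 1 higher call without KO 7. With the mean of probe sets 2 were lower. Vdr, the vitamin D receptor and a nuclear receptor that binds DNA with a retinoid X receptor, had signals of 425.6, 442.5, 425.9, 395.5 and 465.2 on KO 6 to KO 10, against 625.5, 711.9, 798.6, 715.0 and 733.2 on WT 1 to WT 5. The groups were separate, and the log2 difference was -0.71 (SE 0.07, limma adjusted p = 1.89e-05), a 1.64-fold lower value. A further probe set of Vdr averaged 363 in KO cells and 644 in WT cells, a difference of -0.81.

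Cyp24a1, the enzyme that inactivates vitamin D and the best known target of its receptor, had signals of 27.6, 29.0, 26.7, 28.1 and 23.1 on KO 6 to KO 10, against 41.2, 30.4, 88.6, 114.5 and 52.9 on WT 1 to WT 5. The KO arrays were uniformly low, just above the 40th percentile, while the WT arrays ranged widely and WT 2 nearly met the KO arrays. The log2 difference was -0.82 (SE 0.23, limma adjusted p = 0.0177), and the other probe set, below the 40th percentile on every array, gave 0.01. Rxra, the gene of the receptor's partner, averaged 106 ± 7.04 in KO cells and 129 ± 11.9 in WT cells with overlapping groups. Its call was removed by 5 of the 10 single-array omissions and with the mean of its probe sets (-0.13, adjusted p = 0.0826). Cyp27b1, the activating enzyme, averaged 26.5 ± 4.62 in KO cells and 26.4 ± 4.01 in WT cells and did not pass (limma adjusted p = 0.988).

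**Figure D4:**
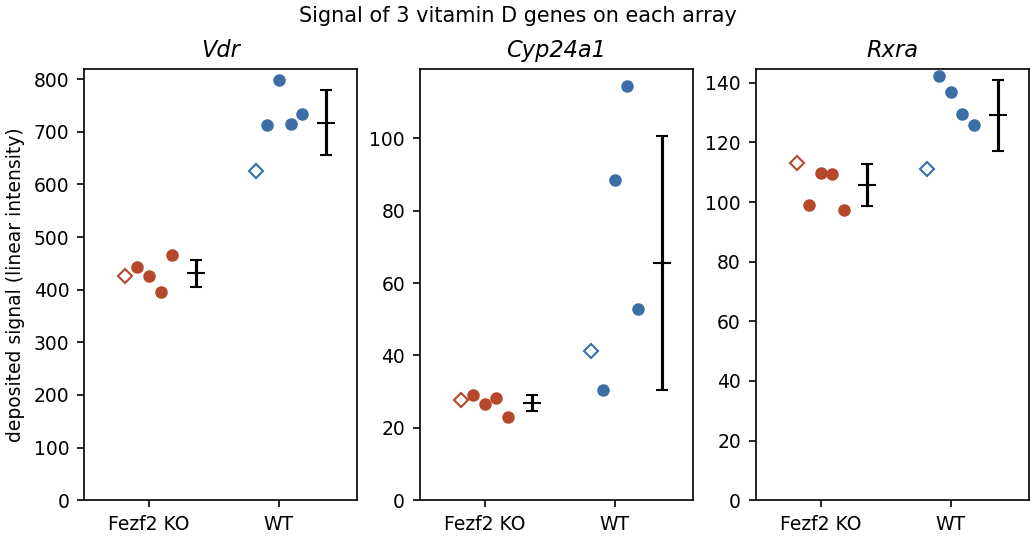
Deposited signal (linear intensity, axis from 0) of Vdr, Cyp24a1 and Rxra on each Fezf2 KO array (left, red) and WT array (right, blue), with the mean and SD of each group beside the points; open diamonds are KO 6 and WT 1. Vdr signals run from 395.5 to 465.2 in KO cells and from 625.5 to 798.6 in WT cells, and Rxra signals overlap.

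The promoter table of RefSeq, build GRCm38.p6, was searched for S100g and Pvalb, and no window is shown for Calb1 or Calb2. Of S100g and Pvalb only S100g is a known vitamin D target, and the part of vitamin D in their differences was not tested. For Pvalb the table gives 2 starts, and the first is shown. The 250 bases before the start of each gene, at chrX:162964600-162964849 and chr15:78206401-78206650, both on the minus strand, are printed 5′ to 3′. Capitals mark the letters AGGTCA, which several nuclear receptors recognise, or their reverse complement TGACCT.
S100g: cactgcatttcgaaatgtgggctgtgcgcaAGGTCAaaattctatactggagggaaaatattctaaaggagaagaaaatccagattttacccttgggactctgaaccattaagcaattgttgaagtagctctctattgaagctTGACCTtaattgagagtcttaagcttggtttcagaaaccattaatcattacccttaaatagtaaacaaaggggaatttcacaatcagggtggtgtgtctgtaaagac
Pvalb: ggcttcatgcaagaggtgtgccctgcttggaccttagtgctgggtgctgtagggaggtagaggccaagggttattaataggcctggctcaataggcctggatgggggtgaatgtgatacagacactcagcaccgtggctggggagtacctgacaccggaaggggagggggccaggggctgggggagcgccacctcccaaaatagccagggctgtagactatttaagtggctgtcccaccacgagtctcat
The S100g window held the letters once on each strand, at -220 and -107 from the start. Neither form was in the Pvalb window shown or in that of the other start, at chr15:78204238-78204487 on the minus strand. Among 32851 upstream windows of the same length, 14% held at least 1 match on either strand and 1.34% held 2 or more. A match is a description of these letters, not of a bound site.

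Markers of the organs in which the members are known showed no common direction. For comparison, 16.2% of all genes tested were lower and 13% higher. Among enterocyte genes, the setting of S100g, 9 of 14 tested were lower and 1 was higher, with a median of -1.0, and the summed signal of the 16 on the array ran from 3536 to 4207 in KO cells and from 6448 to 8486 in WT cells. Fabp2, the intestinal fatty acid binding protein, averaged 146 ± 17.4 in KO cells and 492 ± 100 in WT cells, while Anpep, aminopeptidase N, was higher, at 106 ± 16.3 in KO cells and 29.4 ± 5.85 in WT cells. Among 10 tested genes of the distal nephron, the setting of Calb1 in the kidney, none was lower and 1, Scnn1b, was higher (median 0.02). Without KO 6 and WT 1 the nephron list had 1 lower and 1 higher call. Of 8 genes of Purkinje cells Car8 and Cbln1 were lower (median -0.03), and of 10 genes of inhibitory neurons Reln, Dlx5, Tac1 and Vip were lower (median -0.12).

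Among 9 tested mesothelial genes, the setting of Calb2, none was lower, and Msln, the gene of mesothelin, and Upk1b were higher (median 0.1). Over all genes tested 16.2% were lower and 13% higher. Without KO 6 and WT 1, 3 mesothelial genes were higher. Summed signals of the list were 8700 to 10164 in KO cells and 4514 to 5221 in WT cells. Msln alone averaged 4401 ± 128 in KO cells and 839 ± 46.7 in WT cells. Of 11 genes of fast muscle, the setting of Pvalb, Actn3 and Myh4 were lower and Myl1 was higher (median 0.05). Of 14 genes of islet and enteroendocrine cells 5 were lower and 5 higher (median -0.14). Without KO 6 and WT 1, 3 muscle genes were lower and 1 higher, and 4 islet and enteroendocrine genes were lower and 5 higher.

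No marker was at 0, since the lowest value of the table was 5.49, but Gad2 of inhibitory neurons, Wt1 of mesothelium and Rag2 of thymocytes stayed below the 40th percentile on every array. Of 12 tested mTEC genes 2, Aire and Krt14, were lower and 5 were higher. The higher ones included Tnfrsf11a, Cldn3 and Krt5, with log2 differences of 0.76, 0.65 and 0.71. Summed signals of the mTEC genes were 81616 to 87604 in KO cells and 73443 to 85851 in WT cells. Beside the mTEC counts and those that follow, 16.2% of all genes tested were lower and 13% higher. Markers of cells that the sort should remove were also present. Of 10 tested thymocyte genes none passed, with summed signals of 703 to 1522 in KO cells and 1110 to 1432 in WT cells. This count was from limma, and without KO 6 and WT 1 it was 1, Rag1. Of 11 myeloid genes 4 were lower and 4 higher, with summed signals of 5254 to 6556 in KO cells and 6482 to 7036 in WT cells. Mpeg1, the gene of the macrophage protein perforin-2, had signals of 451.8, 560.3, 590.0, 443.7 and 466.4 on KO 6 to KO 10, against 73.6, 59.6, 61.6, 66.0 and 78.6 on WT 1 to WT 5. All KO arrays lay far above all WT arrays, and its log2 difference of 2.62 (limma adjusted p = 1.48e-08) was the highest of all 14087 genes. Fcgr3, an Fc receptor gene, averaged 201 ± 19.0 in KO cells and 86.5 ± 12.1 in WT cells, and Csf1r, the receptor of a macrophage growth factor, 424 ± 36.7 in KO cells and 617 ± 67.2 in WT cells. Of 7 endothelial genes 5 were higher, with summed signals of 693 to 953 in KO cells and 400 to 793 in WT cells. Of 4 tested B cell genes 1 was lower and 1 higher, with summed signals over the 6 on the array of 4262 to 4523 in KO cells and 3821 to 4409 in WT cells, of 8 fibroblast genes 2 were higher, and of 3 erythroid genes 1 was lower. Without KO 6 and WT 1 the higher calls numbered 5 among the myeloid and 6 among the endothelial genes. In that setting 2 B cell genes were lower and 2 higher, and 1 fibroblast gene was lower and 3 higher. The part of these cells in the differences of the members was not tested.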

How the data were processed

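The files held signal intensity, deposited by the authors on a linear scale for 45101 probe sets on 10 arrays. The only tool in the submitters' processing notes is MAS5, without version; its background step, scaling target and filters are unstated there. Array medians lay between 36.5 and 38.0 and no value was below 5.49. No detection calls were used, so low probe sets are described by their place in the array, and the number of arrays limits the precision.

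Exactly 1 gene symbol was annotated for 34958 probe sets, several for 932 and none for 9211; 34754 were matched to RefSeq (GRCm38.p6) by Entrez identifier. Probe sets above the 40th percentile of their array on at least 5 arrays were kept, and the one with the highest mean per gene was tested, 14087 genes in all. Log2(signal + 16) was fitted with limma 3.58.1 in R 4.3.3 (lmFit, eBayes with trend and robust estimation), KO minus WT, with Benjamini-Hochberg adjustment over all genes and a threshold of 0.05. The offset understates changes of dim genes. Single values were compared by exact permutation over the 252 splits of the arrays. The fit was also run on simulated arrays whose genes varied independently and without array effects. No result here rests on that run.

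The members, lists and tests were chosen with earlier results of these data known. The genes named were the members, Fezf2 and Aire, the 6 nearest profiles per member, the neighbours that passed the threshold (those that did not are counted), up to 5 called genes per calcium or vitamin D list and up to 3 per cell type list, by adjusted p. Scgn, Calr, Hspa5, Trpv6, Cyp27b1, Krt14, Rag2, Gad2, Wt1, Vip and Rag1 were named outside that rule, after their values were seen. Alternatives were other offsets, normalizations, filters, probe set choices and eBayes settings, array weights, KO 6 and WT 1 as a block or left out, log2 Xist as a covariate, a threshold of 0.01 and each array left out.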

Additional observations from a re-analysis of the deposited data

Results flagged for a closer look

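An array far from the others of its group was found in 6 of 64 groups of 5 arrays examined, for the members' probe sets, Fezf2, Aire and the named calcium and vitamin D genes. The measure was the gap to the nearest array divided by the range of the group on the log2(signal + 16) scale, with a limit of 0.71, which chance passes in about 1 group in 20. Among the members this concerned the dimmest Calb1 probe set, where KO 7 had 6.8 against 8.0 to 8.4 on the other KO arrays (0.758). KO 6 was the array apart in 4 of the others. It was lowest in the KO group for Aire, 4368.1 against 6898.9 to 7203.0 (0.914), for Rcn1, 674.8 against 843.2 to 907.9 (0.751), and for Itpr3, 311.6 against 400.3 to 419.7 (0.84), and highest for S100a10, 2776.7 against 1838.7 to 1950.8 (0.857). For S100b KO 9 was highest, 27.0 against 20.0 to 21.5 (0.779).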

How the results depend on the processing

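Calb1 and Calb2 kept their direction and call under all 14 alternatives and all 10 fits that left out 1 array, with log2 differences of -2.17 to -1.71 and -1.13 to -0.93 under the alternatives and of -2.09 to -2.0 and -1.18 to -0.96 without 1 array. S100g did so except at a threshold of 0.01 (value -0.42, adjusted p = 0.0192), ranging from -0.51 to -0.34 without 1 array. Pvalb missed that threshold too (-0.29, adjusted p = 0.0349), ranged from -0.34 to -0.21 without 1 array and was lost in 6 of those fits. The filters and probe set choices could not change the log2 difference of a member. Each member had 1 probe set above the filter, and none of these was of shared sequence, so only the adjusted p moved. At 0.01 the genes called numbered 1313 lower and 1160 higher, against 2281 and 1838, and without 1 array 1857 to 2413 lower and 1514 to 1872 higher. Calls at 0.01 are fewer by construction. The difference between the falls of Calb1 and Calb2 stayed between -1.07 and -0.78. The direction of Washc3 turned, to 0.02 (value 0.01967), without probe sets of shared sequence; the cause was not tested. Scgn, Calr, Hspa5, Cyp27b1, Krt14, Vip, Rag1 and the neighbours that did not pass were not refitted one by one under the alternatives. At a threshold of 0.01 the higher calls among the secretory pathway genes numbered 4 and the lower calls among the vitamin D genes 1. No channel, pump or exchanger gene was called in either direction at that threshold. No paired analysis was possible because the KO and WT arrays share no replicate numbers. Signals near the 40th percentile, as for Cyp24a1 in KO cells and the dim Calb1 probe sets, limit how large a fall can be measured.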
